A study of Homo sapiens with 4 samples.

Results

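The response of LNCaP cells carrying AR1-651 to AIL was examined by comparing 1 RNA-seq library of AR1-651 cells with AIL with 1 library of AR1-651 cells without it. LNCaP is a human prostate cancer cell line that depends on androgen signalling. AIL is ailanthone, a small molecule that the study selected from natural compounds as an inhibitor of androgen signalling. AR1-651 is a truncated receptor, introduced on a plasmid, that lacks the ligand-binding domain and is active without hormone. Cells were transfected with AR1-651 or with an empty vector for 24 h and then kept with or without AIL for 12 h; the labels give no AIL concentration. All 4 conditions were transfected and grown in serum-containing medium. The short names used here stand for the libraries so labelled. Expression was deposited as RPKM, read numbers divided by transcript length and by the total mapped in each library. Of 19801 genes listed in each library, 13661 had an RPKM of at least 1 in 1 or both AR1-651 libraries and were kept. The change with AIL was the difference of log2(RPKM + 1), so a value of 1 is a 2-fold change, and folds of weakly expressed genes are understated on this scale. Genes at or past a 2-fold change are called raised or lowered. Each condition had 1 library, so no difference had a replicate check and none was tested.

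Androgen signalling switches on genes of the secretory prostate cell, among them the kallikreins. Steroid receptors without hormone are held in shape by HSP90, HSP70 and cochaperones such as p23 (encoded by PTGES3). Receptors that lack the ligand-binding domain escape drugs that compete with hormone. Secretory cells also rely on the chaperones of the endoplasmic reticulum and on lipid synthesis, both of which androgens are known to support in prostate cancer cells. The DNA damage response and the NF-kappaB and AP-1 pathways, in turn, drive transcription programs that cells switch on under stress.

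The labels were read against androgen-induced genes. Those were higher in the AR1-651 library than in the empty vector library, with a median difference of 0.92 on the log2 scale and KLK3 at 1442 against 287 RPKM.

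A pair of library-wide features had to be set beside every result. The AR1-651 library held 33.2% of its summed RPKM in ribosomal protein genes, against 25.6% with AIL and 23.2% and 22.4% in the empty vector libraries without and with AIL. The AR1-651 + AIL library stood apart in GC content, the share of G and C in a transcript. Across genes, the difference between AR1-651 + AIL and empty vector + AIL had a Spearman rho with GC content of -0.62, whereas the difference between AR1-651 and empty vector without AIL had a rho of -0.02 (n = 13122 genes, which are not independent replicates). The value of a single read, visible as a step in the RPKM of short weakly expressed genes, placed the depth at 4760000 to 5650000 mapped reads a library. This is an estimate, since 60.5 to 64.4% of the low values lay within 0.15 reads of a whole number. Luminal prostate markers were present in all 4 libraries (8 of 8 at an RPKM of at least 1, summed RPKM 1254 to 2891). The summed RPKM was at most 0.210 for the 1 basal marker measured, 0.590 for the endothelial, 5.06 for the 3 neuroendocrine, 12.7 for the 2 blood and 43.3 for the 3 mesenchymal markers, and their part in the results was not tested.

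With AIL, 2184 genes (16.0% of the 13661 kept) were raised and 839 (6.14%) were lowered at least 2-fold. Scaling the libraries to a median ratio of 1 gave 1675 and 1087 genes, and the share of raised genes among the calls went from 72.2% to 60.6%. The median change of all kept genes as deposited was 0.15, with quartiles of -0.35 and 0.72. A list median between 0 and that value lay below the typical gene, and 8 of the 49 list medians, each of them below it, turned negative after scaling. The raised genes were poorer in GC than the lowered, with medians of 42.0% and 55.8% around 49.0% for all kept genes. They were also longer, with median transcripts of 3422.5 and 2366 nt. Of the calls with an estimated read number, 133 of 2116 raised and 167 of 806 lowered genes had under 20 reads in both libraries, where counting error alone is wide.

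**Figure D1:**
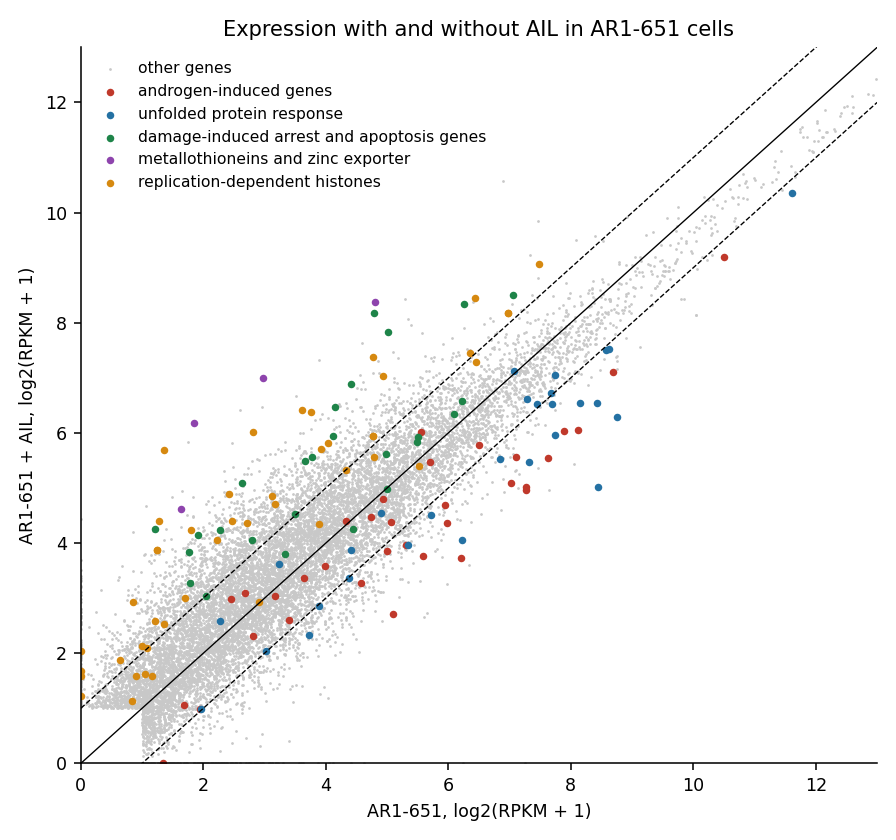
Expression of each kept gene in AR1-651 cells without AIL (x axis) and with AIL (y axis), both as log2(RPKM + 1), 1 library a side. The solid line marks no change and the dashed lines a 2-fold change; damage-induced arrest and apoptosis genes, replication-dependent histones and metallothionein genes lie mostly above it, and androgen-induced and unfolded protein response genes mostly below.

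The GC content of a transcript went along with its change. In the 2187 genes of lowest GC content, from 30.95 to 40.6%, the median change was 0.74 and 37.8% were raised. In the equally large group of highest GC content, from 59.8 to 87.9%, the median was -0.23 and 6.90% were raised, while 11.8% were lowered. The medians fell from group to group in between, through 0.46, 0.23, -0.02 and -0.17. Across 13122 genes the Spearman rho of change and GC content was -0.42. In empty vector cells the same rho was -0.06 and the medians of the 6 groups lay between -0.08 and 0.09. Whether the trend in AR1-651 cells came from the cells or from the making of the libraries was not tested.

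Each result was therefore also computed after a smooth trend of change on GC content had been taken off, which puts the median of all genes at 0. Raised genes then numbered 1233 (9.4% of 13122) and lowered genes 984 (7.5%). Of the 2116 raised genes with known GC content, 1100 (52.0%) stayed raised, and of the 806 lowered genes 664 (82.4%) stayed lowered. A smaller share of the rises than of the falls thus remained. Values after this step are called GC-corrected.

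**Figure D2:**
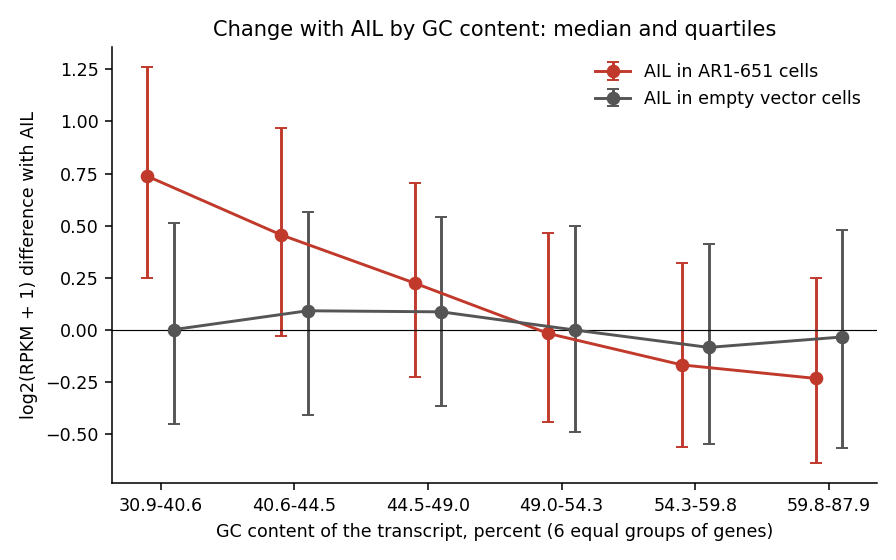
Median change with AIL, as a log2(RPKM + 1) difference, in 6 equal groups of genes ordered by transcript GC content, with bars from the lower to the upper quartile of genes. The AR1-651 points descend from 0.74 to -0.23, while the empty vector points stay between -0.08 and 0.09.

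Metal-binding genes gave the largest change of any list. Metallothioneins are small cysteine-rich proteins that bind zinc and copper, and SLC30A1 exports zinc from the cell; both are classic targets of the metal-sensing factor MTF1. MT2A rose from 27.0 to 333 RPKM in AR1-651 cells and stood at 44.2 and 438 in empty vector cells without and with AIL. MT1X rose from 6.83 to 127, with 12.4 and 137 in empty vector cells. SLC30A1 rose from 2.58 to 71.2, with 3.77 and 75.8. In each case both AIL libraries stood well above both untreated ones. All 4 kept members were raised, by 2.98 (MT1F) to 4.33 (SLC30A1) on the log2 scale, with a median of 3.80 (3.69 GC-corrected) beside 0.15 for all genes. MT1F rested on about 8 and 92 estimated reads, and metallothionein copies resemble each other closely enough for reads to be split between them.

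The sequences before the start sites of 3 of these genes are shown because they rose together. They are the 250 bases upstream of the RefSeq start (GRCh38.p14), 5′ to 3′ on the strand of the gene, for MT2A (chr16:56608334-56608583, plus strand), MT1X (chr16:56682220-56682469, plus strand) and SLC30A1 (chr1:211579162-211579411, minus strand). Capitals mark the core of the metal response element, searched as TGCGCNC and TGCACNC on both strands.
MT2A: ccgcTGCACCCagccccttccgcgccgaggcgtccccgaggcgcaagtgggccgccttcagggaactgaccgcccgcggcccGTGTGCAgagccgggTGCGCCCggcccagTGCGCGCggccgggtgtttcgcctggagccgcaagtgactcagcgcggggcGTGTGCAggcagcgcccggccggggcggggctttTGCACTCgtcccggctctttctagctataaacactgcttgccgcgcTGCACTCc
MT1X: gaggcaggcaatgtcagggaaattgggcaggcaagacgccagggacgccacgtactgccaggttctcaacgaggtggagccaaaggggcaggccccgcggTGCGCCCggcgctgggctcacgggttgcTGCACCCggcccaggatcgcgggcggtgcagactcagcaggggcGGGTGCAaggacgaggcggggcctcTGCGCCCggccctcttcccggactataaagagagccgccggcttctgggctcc
SLC30A1: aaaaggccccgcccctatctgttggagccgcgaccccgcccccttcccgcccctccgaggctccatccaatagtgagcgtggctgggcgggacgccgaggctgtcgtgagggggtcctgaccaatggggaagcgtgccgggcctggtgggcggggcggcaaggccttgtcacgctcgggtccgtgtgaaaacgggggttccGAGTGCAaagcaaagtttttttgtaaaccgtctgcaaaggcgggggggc
The MT2A window held 7 matches, the MT1X window 4 and the SLC30A1 window 1. Of 10605 kept genes with a promoter sequence, 26.5% held TGCGCNC and 9.32% held TGCACNC, so a single match is common. A match is a description of the letters only.

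Genes that DNA damage is known to induce, which stop the cell cycle, repair DNA or start apoptosis, rose together. Of 26 kept members 17 were raised and none was lowered, with a median of 1.64 (1.43 GC-corrected), beside 16.0% raised over all genes. CDKN1A, the cyclin-dependent kinase inhibitor p21, went from 132 to 361 RPKM, with 155 and 551 in empty vector cells without and with AIL. MDM2, a ubiquitin ligase, went from 11.6 to 44.1, with 22.1 and 39.9. Both genes were lower in the AR1-651 library than in the empty vector library before AIL and reached 2.72-fold and 3.58-fold higher values with it. BBC3, which encodes the pro-apoptotic protein PUMA, rose from 5.18 to 32.9 (2.46 on the log2 scale). GADD45A, a growth arrest and DNA repair factor, rose from 31.2 to 227 (2.83). FAS, a death receptor, rose from 1.31 to 18.0 (3.04). The rise therefore covered arrest, repair and death genes. Among the others, AEN, an apoptosis-enhancing nuclease, changed by 2.48, the phosphatase gene PPM1D by 2.24, PHLDA3 by 2.07 and PMAIP1, which encodes NOXA, by 2.07. BAX was not called, at 0.36. In the BCL2 family, to which BBC3 and PMAIP1 also belong, 3 of 16 kept members were raised and 2 lowered. Over all genes 16.0% were raised and 6.14% lowered, so the raised share was near that of all genes. The third raised gene was MCL1, a pro-survival member (69.0 to 151 RPKM). MCL1 was not called after GC correction (0.84) or after median-ratio scaling of the libraries.

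Immediate early genes encode transcription factors that cells induce within minutes of a stimulus, without new protein synthesis. Of 27 kept, 16 were raised and 1 lowered, with a median of 1.06 (1.13 GC-corrected), beside 16.0% raised and 6.14% lowered over all genes. ATF3, a stress-induced repressor, rose from 13.8 to 159.5 RPKM and stood at 7.08 and 145 in empty vector cells. JUN, a subunit of AP-1, rose from 38.0 to 346, with 35.6 and 367. Its partner FOS rose from 0.590 to 10.9, with 0.730 and 16.2. For all 3 the AIL libraries were the higher ones in both backgrounds. BTG2, an antiproliferative gene that is also on the damage-induced list, changed by 3.40 (26.5 to 289.6 RPKM), KLF10 by 3.35 and KLF6 by 2.78, both zinc finger factors. JUNB did not follow, at -0.04. The member that was lowered was NR4A1, an orphan nuclear receptor, which went from 17.2 to 3.91 RPKM (-1.89). The dual-specificity phosphatases and Sprouty genes that restrain MAP kinases had 4 of 12 kept members raised and none lowered, beside the same shares of all genes. The raised genes were DUSP8 (1.87), DUSP16 (1.58), DUSP10 (1.54) and DUSP1 (1.03). After GC correction 4 were raised and 1 lowered, beside 9.4% and 7.5% of all genes. DUSP1 was below 2-fold after median-ratio scaling.

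NF-kappaB is the transcription factor of inflammatory signalling, and many of its targets feed back on it. Of 19 kept members 11 were raised and none lowered, with a median of 1.17 (1.34 GC-corrected). BIRC3, an inhibitor of apoptosis and ubiquitin ligase, rose from 1.09 to 24.4 RPKM, with 1.68 and 10.2 in empty vector cells. The chemokine CCL20 rose from 6.76 to 87.5, with 4.27 and 51.8. CXCL8, which encodes interleukin 8, rose from 1.80 to 27.5, with 0.920 and 10.9. BIRC3 and CXCL8 were scarce without AIL, and the counting interval of the CXCL8 log2 ratio (exact Clopper-Pearson, 95%, counting error only) ran from 3.21 to 4.72 on about 17 and 265 estimated reads. Of the feedback inhibitors, TNFAIP3 (A20) rose by 2.29 and NFKBIA, which holds NF-kappaB in the cytoplasm, stood at 0.82, below the threshold. Among the subunits RELB rose by 2.28. Of the interferon-stimulated genes, a separate antiviral program, 4 of 21 were raised, led by IFIT2 (2.10 to 18.7 RPKM). Another 2 were lowered, among them IFI6 (55.4 to 13.9), and the median was 0.11. These counts were near the 16.0% raised and 6.14% lowered over all genes. After GC correction 2 were raised and 1 lowered.

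Replication-dependent histone genes, whose messages are normally made in S phase and end in a stem-loop in place of a poly(A) tail, were raised as a group. Of 46 kept genes 36 were raised and none lowered, with a median of 1.56 (1.51 GC-corrected), beside 16.0% raised over all genes. The linker histone gene H1-4 went from 1.42 to 20.2 RPKM, with 0.770 and 19.3 in empty vector cells. H3C4 went from 6 to 63.4, with 4.15 and 46.0. H3C13 went from 1.57 to 50.9, with 5.82 and 60.7. Before AIL these messages were rare, with about 6 estimated reads for H1-4 and 4 for H3C13. The share of summed RPKM in the list went from 0.156 to 0.531% in AR1-651 cells and from 0.177 to 0.565% in empty vector cells. The list holds near-identical copies, and H3C14 and H3C15 were deposited with the same value in every library (1.37 and 13.7 RPKM without and with AIL in AR1-651 cells; they were singled out after their values were seen), so the members are not separate measurements. The labels name both a ribosomal RNA removal kit and oligo(dT) enrichment, and how either captured messages without poly(A) was not tested. H3-3A, a replication-independent H3.3 gene, went the other way, from 115 to 23.1 RPKM (-2.27).

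Other cell cycle genes moved less. Their counts stand beside 16.0% raised and 6.14% lowered over all genes, and 9.4% and 7.5% after GC correction. The share of DNA replication genes raised was below that of all genes on both scales. The share of mitosis genes raised was below it after GC correction. Of 42 DNA replication genes 4 were raised, with RFC4 highest (1.62), and 2 lowered, POLD2 (-1.39) and FEN1 (-1.05, and -0.98 GC-corrected, not called), around a median of 0.12; after GC correction 1 was raised and 3 were lowered. Of 40 mitosis genes 11 were raised and SPC24 lowered (-1.02, and -0.95 GC-corrected, not called), but the median of 0.65 became 0.36 and the raised genes 2 after GC correction. The kinetochore gene NDC80 (10.5 to 34.8 RPKM, 1.64) and the spindle motor KIF11 (1.46 to 5.76, 1.46) were the highest of the list, and KIF11 was at 0.72 after correction. CDK1 stood at 73.1 and 71.0 RPKM. The G1 kinase CDK4 went from 77.0 to 39.8 (-0.94) and cyclin D1, CCND1, from 105 to 64.5 (-0.70), neither of which reached 2-fold, while the inhibitor CDKN2B rose from 1.24 to 8.69 (2.11). FOXM1, a transcription factor of late cell cycle genes, stood at 8.19 and 3.87.

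Androgen-induced genes gave the lowest median of any list of 10 or more members, with no member raised. Of 34 kept genes 18 were lowered, with a median of -1.20 (-1.34 GC-corrected, when 24 were lowered), beside 6.14% lowered over all genes. KLK3, which encodes prostate-specific antigen, went from 1442 to 582 RPKM, 2.48-fold down, and stood at 287 and 303 in empty vector cells. The related protease KLK2 went from 198 to 45.4, with 14.3 and 11.6. The membrane protease TMPRSS2 went from 276 to 65.1, with 36.7 and 16.6. These genes were lowered from a high level, and even with AIL they stayed above the empty vector library. FKBP5, an HSP90 cochaperone and androgen target, went from 62.1 to 19.5 RPKM, with 7.04 and 7.29 in empty vector cells. CAMKK2, a kinase that activates AMPK, fell furthest, from 72.6 to 12.2 (-2.48), and in empty vector cells from 41.5 to 9.68. SLC45A3, the prostate antigen prostein, went from 33.4 to 5.53, with 6.21 and 2.79. CAMKK2 and SLC45A3 thus ended below the untreated empty vector level, which KLK3, KLK2 and FKBP5 did not. Also lowered were SPDEF, an ETS factor of luminal cells (-2.25), NDRG1 (-1.94), the lipid phosphatase gene PLPP1 (-1.86), the condensin subunit NCAPD3 (-1.82) and KLK4 (-1.55). The highest members of the list, MPHOSPH9 (0.53), C1orf116 (0.47) and ELOVL7 (0.42), were not called.

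The same genes were compared across backgrounds, since the AR1-651 library started higher. Without AIL, the median androgen-induced gene was 0.92 above the empty vector library on the log2 scale, and with AIL it was 0.50 above. The change with AIL had a median of -0.48 in empty vector cells, with 6 of 34 genes lowered and 2 raised. KLK3 and FKBP5 changed by 0.08 and 0.04 there, whereas CAMKK2 and TMPRSS2 were lowered in empty vector cells too, with changes of -1.99 and -1.10. The difference between the backgrounds was not tested. Genes that androgen represses showed no common direction. Of 8 kept, only UGT2B15, a glucuronidating enzyme of androgens, was raised (0.840 to 3.44 RPKM, about 10 and 40 estimated reads, and 0.58 GC-corrected, not called), none was lowered, and the median turned from 0.38 to -0.36 after GC correction. Members of the list with reads that their close UGT2B relatives could share are uncertain.

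The KLK3 promoter is shown because KLK3 is a textbook androgen-responsive gene. The 250 bases upstream of the RefSeq start (GRCh38.p14, chr19:50854665-50854914, plus strand) are written 5′ to 3′, with the androgen response element half-site, AGAACA on either strand, in capitals.
KLK3: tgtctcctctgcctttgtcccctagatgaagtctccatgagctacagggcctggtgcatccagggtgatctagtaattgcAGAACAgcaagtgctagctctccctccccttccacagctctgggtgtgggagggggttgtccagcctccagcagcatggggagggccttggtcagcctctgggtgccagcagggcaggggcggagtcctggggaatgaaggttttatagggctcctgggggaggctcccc
The window held 1 match. Of 10605 kept genes with a sequence, 7.41% held AGAACA, as did 1 of 25 androgen-induced genes in the 250 bases searched. These counts describe letters in a window and say nothing of binding elsewhere.

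**Figure D3:**
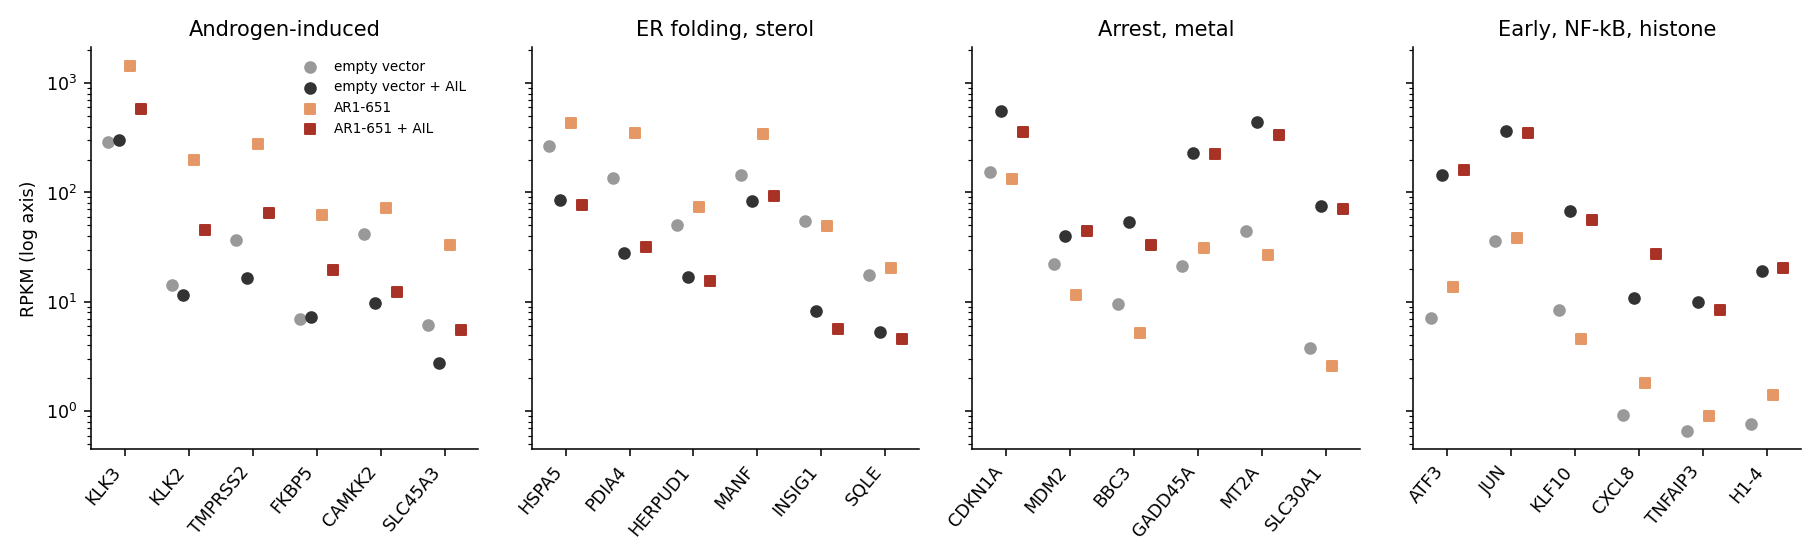
RPKM (log axis) of 24 genes in the 4 libraries, 1 point a library, in panels by function. For every gene of the 2 right panels the AIL libraries (black circles and red squares) lie above the untreated ones (grey circles and orange squares) in both backgrounds, and the androgen-induced genes of the left panel are highest in AR1-651 cells without AIL.

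Genes of the unfolded protein response, which fold, modify and degrade proteins in the endoplasmic reticulum, made up the next lowest list of protein-coding genes. Of 28 kept members 16 were lowered and none raised, with a median of -1.09 (-1.25 GC-corrected, when 21 were lowered). The share lowered over all genes was 6.14%, and 7.5% after GC correction. PDIA4, a disulfide isomerase, had the largest fall of all protein-coding genes that were eligible for naming, from 346 to 31.5 RPKM, 10.7-fold, and stood at 135 and 28 in empty vector cells. HSPA5, the central chaperone BiP, went from 428 to 77.6, with 268 and 84.7. HERPUD1, of the degradation pathway, went from 73.5 to 15.5, with 50.4 and 17. The treated libraries reached similar values in both backgrounds from a higher start in AR1-651 cells. MANF, a secreted stress protein, changed by -1.88, HYOU1, an HSP70-like chaperone, by -1.85, and PDIA6, another isomerase, by -1.62. Of the sensors, ATF6 (0.39) and ERN1 (0.30) had values above 0, while EIF2AK3, which encodes PERK, stood at -0.99. XBP1, a transcription factor that ERN1 activates, stood at -0.95. Both were short of 2-fold as deposited and lowered after GC correction, at -1.30 and -1.004. Without AIL the median member was 0.53 above the empty vector library and with AIL 0.06. The list changed by a median of -0.75 in empty vector cells, where 8 members were lowered. In these single libraries, the part of the fall that came from the higher start cannot be told apart from a stronger response.

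Promoters of HSPA5 and PDIA4 are shown because these genes lead the list. They are given as before (250 bases upstream, GRCh38.p14, 5′ to 3′; HSPA5 on chr9:125241344-125241593, minus strand, and PDIA4 on chr7:149028491-149028740, minus strand). Capitals mark the parts of the endoplasmic reticulum stress element, CCAAT and CCACG, on either strand. Each part was searched on its own, without regard to spacing or relative orientation, so the marks need not form the full element.
HSPA5: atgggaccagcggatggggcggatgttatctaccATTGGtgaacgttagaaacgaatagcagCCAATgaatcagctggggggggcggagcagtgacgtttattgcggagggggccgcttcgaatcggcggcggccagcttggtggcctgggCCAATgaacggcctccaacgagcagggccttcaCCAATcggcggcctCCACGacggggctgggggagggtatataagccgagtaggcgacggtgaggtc
PDIA4: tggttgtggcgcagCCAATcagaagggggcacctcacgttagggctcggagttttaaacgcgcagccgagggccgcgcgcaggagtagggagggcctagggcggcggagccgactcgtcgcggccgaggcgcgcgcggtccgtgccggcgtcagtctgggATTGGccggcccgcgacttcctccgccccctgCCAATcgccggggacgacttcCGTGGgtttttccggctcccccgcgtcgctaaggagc
HSPA5 held 4 CCAAT and 1 CCACG, and PDIA4 3 and 1. CCAAT was in 22 of 25 unfolded protein response promoters and CCACG in 17, against 36.0% and 44.4% of all 10605. CCAAT was also in 37 of 43 histone promoters, whose genes went the other way.

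The integrated stress response, run by the factor ATF4, had members called in both directions. Of 33 kept members 6 were raised and 6 lowered, around a median of -0.38, beside 16.0% and 6.14% over all genes. The raised share was thus near that of all genes. After GC correction 6 were raised and 9 lowered, beside 9.4% and 7.5% over all genes. ATF4 itself went from 272 to 727 RPKM, with 171 and 703 in empty vector cells. PPP1R15A, which encodes the phosphatase subunit GADD34, changed by 1.63, SLC3A2, an amino acid transporter subunit, by 1.66 and SESN2 by 1.26. The other raised members were ATF3 and CEBPG (1.07, but below 2-fold after GC correction or median-ratio scaling). CHAC1, a glutathione-degrading enzyme, fell by 2.43, the glutamine transporter SLC1A5 by 2.18 and the arginine transporter SLC7A1 by 1.73. ASNS, asparagine synthetase, stood at 63.7 without and 33.7 RPKM with AIL, and DDIT3, which encodes CHOP, at 84.8 and 92.8; neither was called as deposited, and ASNS was lowered after GC correction (-1.07). In empty vector cells DDIT3 went from 29.1 to 65.1 RPKM and ASNS from 45.3 to 30.2. The ATF4 message rose, then, while other members of the list were called in both directions.

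Both lists of lipid synthesis genes had medians below 0. Cholesterol synthesis is driven by SREBP2 (SREBF2) and fatty acid synthesis by SREBP1 (SREBF1), both of which INSIG1 restrains and both of which activate INSIG1. Of 24 cholesterol genes 7 were lowered and 1 raised, with a median of -0.75 (-0.81 GC-corrected), beside 6.14% lowered and 16.0% raised over all genes. INSIG1 fell from 49.1 to 5.60 RPKM, with 55.1 and 8.27 in empty vector cells. SQLE, squalene epoxidase, fell from 20.2 to 4.55, with 17.6 and 5.32. LSS, lanosterol synthase, fell from 22.8 to 5.02, with 34.5 and 8.60. LSS and SQLE thus changed by -1.98 and -1.93, and by -1.89 and -1.56 in empty vector cells. SREBF2 changed by -1.02 (-0.87 GC-corrected, not called), and HMGCS1 stood at -0.24. SC5D was raised (1.57, and 0.85 GC-corrected, not called). Of 14 fatty acid genes 5 were lowered and none raised, with a median of -0.86 (-1.06 GC-corrected). Fatty acid synthase, FASN, went from 142 to 37.3 RPKM (-1.90), the desaturase FADS2 from 81.9 to 19.9 (-1.99) and SCD from 72.3 to 20.3 (-1.78).

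HSP90 genes, their cochaperones and the heat shock chaperones did not move as a group. Among their lowered members, HSP90B1 and DNAJB9 (-1.38) are also counted in the unfolded protein response list, and FKBP5 (-1.63) among the androgen-induced genes. Of 20 HSP90 genes and cochaperones 2 were raised, a smaller share than the 16.0% of all genes. Another 3 were lowered, namely HSP90AB1, HSP90B1 and FKBP5, beside 6.14% of all genes. The median of 0.02 became -0.40 after GC correction. PTGES3, the p23 gene, stood at 83.5 RPKM without and 84.2 with AIL, and at 119.7 and 96.8 in empty vector cells. The constitutive HSP90AB1 went from 1068 to 499.6 (-1.09), the inducible HSP90AA1 from 489.6 to 370.4 (-0.40) and the endoplasmic HSP90B1 from 391 to 182 (-1.10). The p23 message thus changed by 0.01 as deposited, by -0.40 GC-corrected and by -0.30 in empty vector cells. Messages of 2 HSP90 genes, HSP90AB1 and HSP90B1, were lowered in AR1-651 cells (-1.20 and -1.55 GC-corrected). HSP90AA1 stood at -0.67 GC-corrected. In empty vector cells HSP90AA1 changed by -1.36, HSP90AB1 by -0.69 and HSP90B1 by -1.58. The cochaperones raised were CHORDC1 (1.27, and 0.53 GC-corrected, not called) and TTC4 (1.19). Of 29 heat shock chaperones and their factors, 5 were raised and 2 lowered, near the 16.0% and 6.14% of all genes. Their median was 0.06. After GC correction 3 were raised and 4 lowered, beside 9.4% and 7.5% of all genes. HSPA8, the constitutive HSP70, went from 1059 to 281 RPKM, with 846 and 324 in empty vector cells. DNAJB4, an HSP40, rose from 7.54 to 48.0, and the heat shock factor gene HSF2 from 4.22 to 17.7, whereas HSF1 stood at 24.4 and 23.4.

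Antioxidant genes had more falls than rises. Of 22 genes of the NRF2 pathway, which also covers iron storage, 5 were lowered and 1 raised, with a median of -0.51 (-0.58 GC-corrected). Over all genes 6.14% were lowered and 16.0% raised. The raised gene was NFE2L2, which encodes NRF2 (5.68 to 15.9 RPKM). The ferritin chains FTH1 and FTL, which store iron, fell by 1.08 and 1.35, and the quinone reductase NQO1 by 1.30. HMOX1, heme oxygenase, was low in both libraries, at 4.75 and 3.40 RPKM. Glycolysis had 1 of 21 genes lowered, HK2 (4.78 to 0.510 RPKM), and none raised, with a median of -0.30, and GAPDH stood at 1840.2 and 1487.

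The translation machinery was read against the ribosomal protein share given above, and genes with many processed copies, as ribosomal protein, ferritin, tubulin and HSP90 genes have, are uncertain where reads were split among copies. Of 85 cytosolic ribosomal protein genes and paralogs 5 were lowered, a share near the 6.14% of all genes, and none raised. Yet 81 had a change below 0, and the median was -0.49 against 0.06 in empty vector cells. After GC correction the median was -0.57 and 17 were lowered, beside 7.5% of all genes. RPL34 went from 1191 to 561 RPKM and RPL39 from 2804 to 1357, while empty vector cells had 422 and 443 for RPL34. The untreated AR1-651 library was the one that stood apart, with a median ribosomal protein gene 0.86 above the empty vector library, and with AIL the same difference was 0.28. Of 78 respiratory chain subunits none was called as deposited and 5 were lowered after GC correction. Their median was -0.28 against 0.22 in empty vector cells, and before AIL they stood 0.65 above the empty vector library. Among 61 translation factors, 6 were raised, with EIF3A at 1.45 and EIF5 at 1.41 (0.91 GC-corrected, not called), and 2 lowered, the poly(A)-binding protein gene PABPC1 (-1.17) and EIF4EBP1, a repressor of cap-dependent initiation (-1.08, and -0.85 GC-corrected, not called). As deposited both shares of the translation factors lay below the 16.0% raised and 6.14% lowered over all genes. After GC correction the balance of this list turned over, to 1 raised and 6 lowered, and its median went from 0.12 to -0.18.

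Genes that build ribosomes included rises and no falls. Of 37 kept 11 were raised and none lowered, with a median of 0.38 (0.29 GC-corrected, when 7 were raised). The shares of all genes were 16.0% raised and 6.14% lowered, and 9.4% and 7.5% after GC correction. UTP15, of the small subunit processome, went from 3.39 to 16.7 RPKM and the helicase gene DDX21 from 20.6 to 56.8 (1.42, and 0.87 GC-corrected, not called), while the methyltransferase gene FBL stood at 212 and 188. Long non-coding hosts of small nucleolar RNAs had 7 of 25 raised and 2 lowered, the lowered share near that of all genes. Their median of 0.25 became 0.05 after GC correction, when 6 of 23 were raised and 2 lowered. SNHG1 rose from 28.0 to 158 RPKM, with 28.7 and 119 in empty vector cells, and SNHG7 from 17.5 to 90.8, with 20.3 and 115. The small nucleolar RNAs themselves had 24 of 121 raised and 60 lowered, but 104 of them had under 20 estimated reads in both libraries, which is too few to read a direction from. In mitochondria, 7 of 77 ribosomal protein genes were raised, a smaller share than the 16.0% of all genes, and 20 in empty vector cells, with MRPS31 (1.66) and MRPL2 (1.51) highest in AR1-651 cells, and none lowered in either.

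Chromatin, ubiquitin and zinc finger genes were raised more often than lowered, as were all kept genes (16.0% and 6.14%). The medians of these lists came nearer to that of all genes after GC correction. Their transcripts had median GC contents of 47.1%, 41.7% and 43.5%, below the 49.0% of all kept genes. Of 44 chromatin genes 11 were raised and none lowered, with a median of 0.82 that became 0.56. After GC correction 8 were raised, beside 9.4% of all genes. The deacetylase gene SIRT1 rose from 4.79 to 23.9 RPKM, with 12.0 and 21.6 in empty vector cells, and the histone methyltransferase gene ASH1L from 1.65 to 7.24, with 8.16 and 6.56. ASH1L was low in the untreated AR1-651 library and alike in the other three, and before AIL the median chromatin gene was -1.05 relative to the empty vector library. Of 35 ubiquitin genes and ligases 15 were raised, but 4 after GC correction, near the 9.4% of all genes on that scale. Their median went from 0.77 to 0.29. Of 447 zinc finger genes with a ZNF symbol, most of them repressors, 188 were raised and 2 lowered, with 109 raised and 4 lowered after correction. Their median of 0.85 became 0.56, against a median of 0 for all genes on that scale, with ZNF644 (4.03 to 38.6 RPKM) and ZNF112 (1.07 to 12.9) among the highest.

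Prostate identity was checked with lineage factors and epithelial genes. FOXA1, a pioneer factor of prostate epithelium, stood at 82.2 RPKM without and 86.1 with AIL, and HOXB13 at 141 and 97.2. Among the 12 factors kept, 4 were raised, including TRPS1 (1.93), ELF3 (1.73) and SOX4 (1.73), and SPDEF was lowered. Over all genes 16.0% were raised and 6.14% lowered. Of 18 luminal keratin and junction genes 1 was lowered and none raised, with a median of 0.14. The one lowered, the keratin gene KRT8, went from 253 to 123 RPKM (-1.04, and -0.85 GC-corrected, not called), with 91.5 and 114 in empty vector cells, and KRT18 stood at 638 and 474. Of 14 tubulins and actins 3 were lowered, among them TUBB (139.7 to 31.0 RPKM) and TUBA1B (369.7 to 161). Another 2 were raised, a share near that of all genes, among them ACTG1 (1.00, below 2-fold after median-ratio scaling). ODC1, the first enzyme of polyamine synthesis, went from 917 to 343 RPKM, with 203 and 315 in empty vector cells, so that only the untreated AR1-651 library stood high. The lysosomal protease CTSD fell from 118 to 45.8. Of 15 genes of BMP and TGF-beta feedback 4 were raised and none lowered, beside 16.0% and 6.14% of all genes. The raised genes included BAMBI (2.59), ID3 (2.14) and SKIL (1.81, and 0.93 GC-corrected, not called). The list median of 0.20 became 0.05 after GC correction. On that scale 2 were raised and 1 lowered, beside 9.4% and 7.5% of all genes.

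Among the other protein-coding genes named by the rule stated with the methods, the changes were as follows. TXNIP, an inhibitor of thioredoxin that senses glucose, rose from 118 to 1529 RPKM, with 134 and 1506 in empty vector cells. STX19, a membrane fusion protein, rose from 5.04 to 84.9, with 2.50 and 63.2. FBXW7, a substrate receptor of the SCF ubiquitin ligase, rose from 2.13 to 29.6, with 3.67 and 18.3. All 3 were higher with AIL in both backgrounds, as was CDKN2AIP (3.17). The readthrough gene CKLF-CMTM1 rose from 1.25 to 17.7 but shares its reads with its neighbours and is uncertain. LFNG, a glycosyltransferase acting on Notch, fell from 15.5 to 1.28 RPKM, with 29.2 and 3.31 in empty vector cells. CANT1, a Golgi nucleotidase, fell from 80.1 to 11.2, with 59.8 and 14.2. MARCKSL1, an actin-binding protein, fell from 265 to 42.2, with 356 and 66.8. Here too the treated libraries were the low ones in both backgrounds, also for FGFRL1 (-2.72), LRRC45 (-2.64) and LRP3 (-2.33). In contrast, BHLHA15, a factor of secretory cells, went from 22.3 to 3.08 RPKM while empty vector cells had 9.52 and 8.82, and the sialyltransferase ST6GALNAC1 went from 14.6 to 1.62 while empty vector cells were at 0.760 and 0.0800. Of other gene types, the pseudogene ABCA11P (2.50) and the antisense transcripts KRTAP5-AS1 (2.76) and BBOX1-AS1 (2.51) rose, CEBPA-DT fell (-2.36), and the small RNAs that the rule names were MIR2110 (1 and 24 estimated reads without and with AIL), MIR4426 (68 and 11), MIR3621 (8 and 2), SNORA50C (35 and 4) and SNORA8 (8 and 1), all of them on few reads. No use of strand in the counting is stated, so reads of an antisense transcript and of its partner cannot be told apart.

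**Figure D4:**
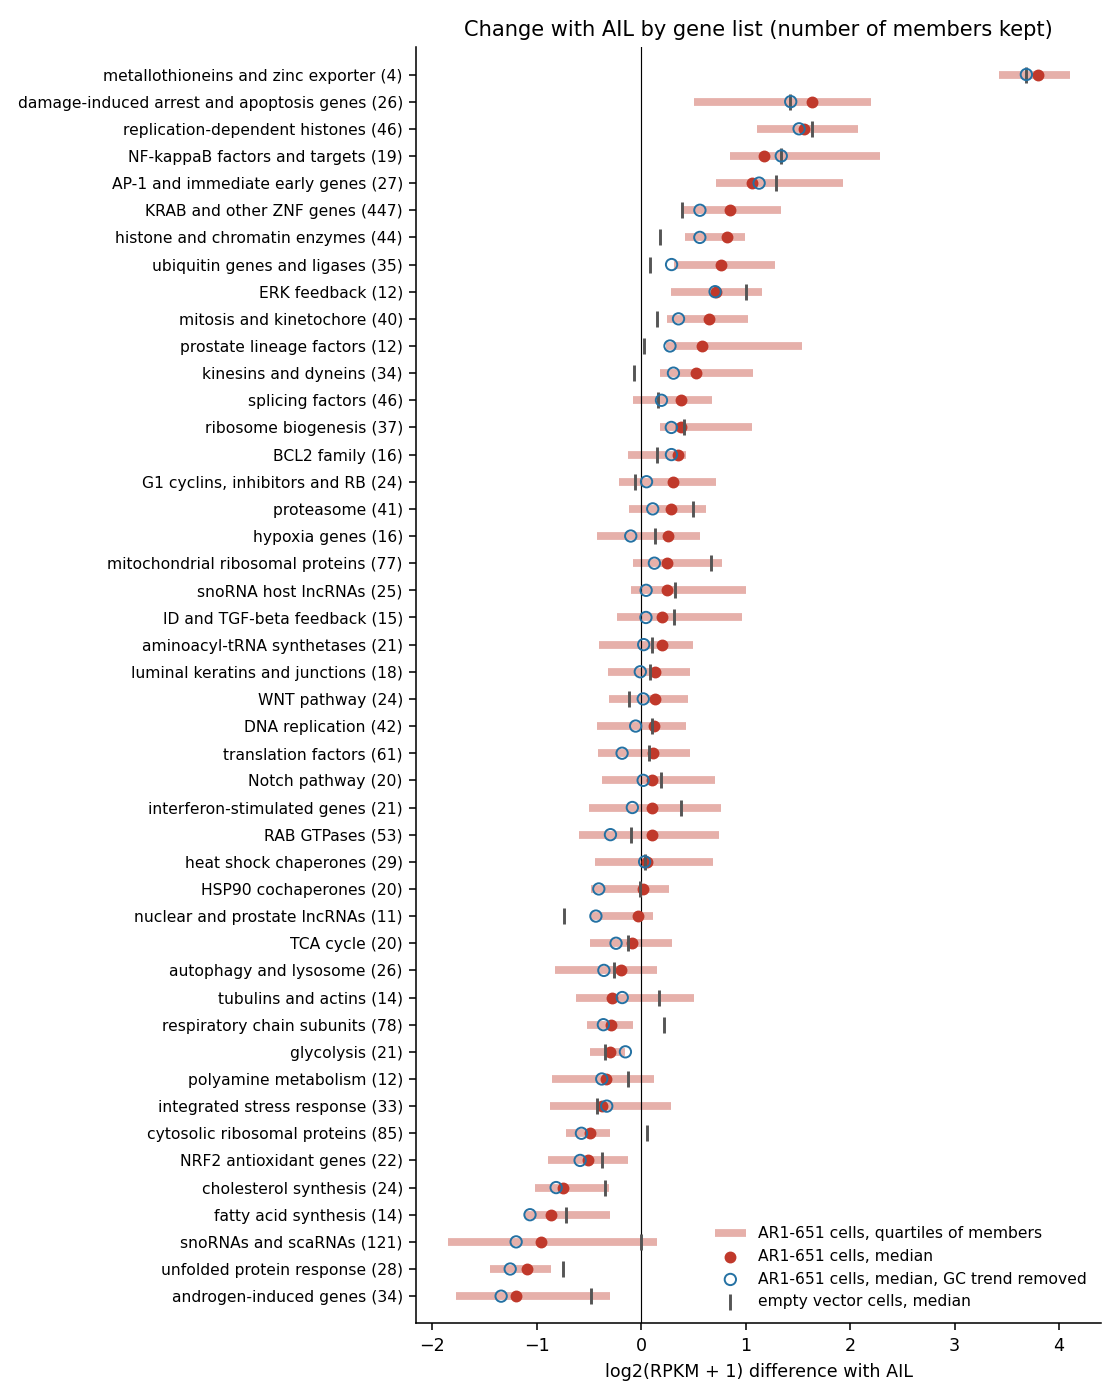
Median change with AIL of 45 gene lists with 10 or more kept members and of the metallothioneins (number of members in brackets), as log2(RPKM + 1) differences. Filled red points and pale bars are medians and quartiles in AR1-651 cells, open blue circles the GC-corrected medians, and black ticks the medians in empty vector cells; the open circles lie well left of the red points for the ubiquitin, chromatin and zinc finger lists.

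The empty vector libraries gave an independent pair, since they share no library with the AR1-651 pair. Over the same 13661 genes AIL raised 1315 (9.63%) and lowered 1146 (8.39%) in empty vector cells. Across genes the changes in both backgrounds had a Pearson r of 0.60, and of 0.64 when both were GC-corrected. Raised in both were 830 genes, which is 38% of those raised in AR1-651 cells and 63.1% of those raised in empty vector cells. Lowered in both were 428, or 51.0% and 37.4%. Opposite calls were few, with 49 genes raised in AR1-651 cells and lowered in the other background and 36 the reverse. For the damage-induced genes, early genes, NF-kappaB list, histones and metallothioneins the empty vector medians were 1.43, 1.29, 1.34, 1.63 and 3.69. The androgen-induced, unfolded protein response and cholesterol lists had -0.48, -0.75 and -0.34. The medians of these 3 lowered lists were nearer 0 in empty vector cells than in AR1-651 cells, and those of the 5 raised lists lay on either side. No difference between the backgrounds was tested.

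**Figure D5:**
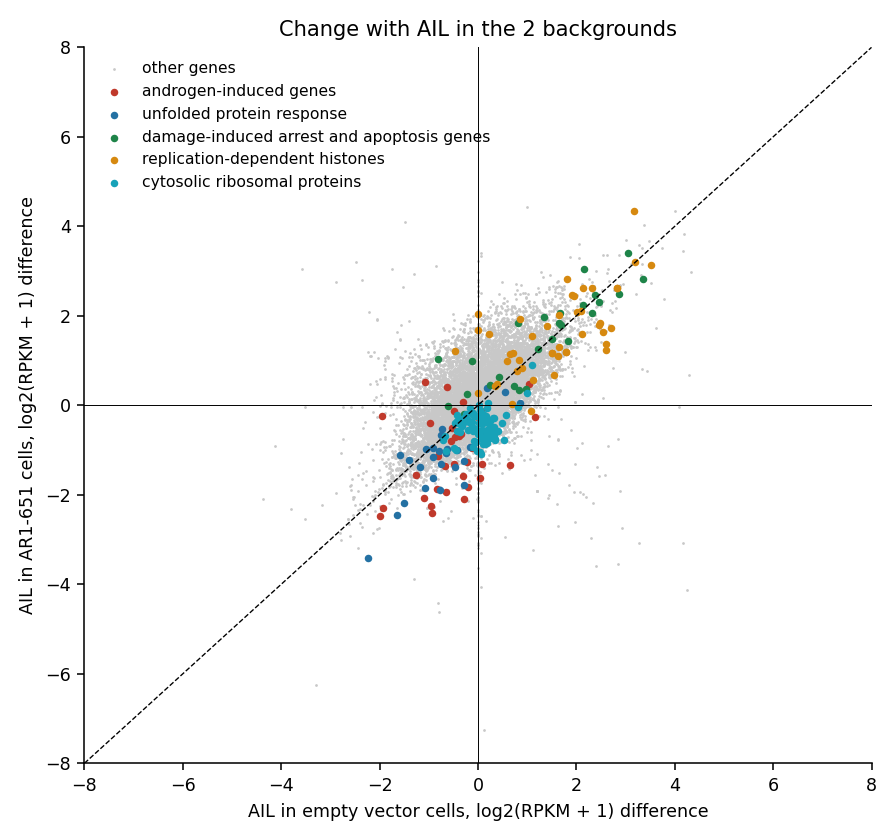
Change with AIL of each kept gene in empty vector cells (x axis) and in AR1-651 cells (y axis), as log2(RPKM + 1) differences; the dashed line marks equal change. Most androgen-induced and unfolded protein response genes lie below the dashed line, damage-induced genes and histones lie mostly around it in the upper right, and ribosomal protein genes mostly lie near 0 on the x axis and below 0 on the y axis.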

How the data were processed

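RNA was sequenced in 1 library for each of 4 conditions. The authors deposited RPKM per gene; per the labels the RNA was prepared with a ribosomal RNA removal kit and oligo(dT) beads. The submitters' processing notes name BWA (0.7.10-r789) and hg19; the counting step is not given in the sources used here. RPKM keeps no counts, and depth was estimated from 1-read steps, so intervals are approximate and cover counting error only.

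Genes were matched by Entrez ID to RefSeq (GRCh38.p14) for symbols and promoters and to GENCODE 29 for transcript GC content and length; 13122 of 13661 kept genes had a GC content. Changes were log2(RPKM + 1) differences between the libraries, computed with NumPy 2.4.6 and pandas 2.3.3, with a fold threshold of 2. The GC correction subtracted a polynomial of degree 3 in the GC rank. The script was tested on simulated data. No test between conditions was possible. Genes were named by a rule, with some that it names not reported here: the 15 largest rises and falls among protein-coding genes of at least 500 nt with an RPKM of at least 1 in both libraries and 5 in 1, and the 10 largest after GC correction, of which the text gives a part; the 5 largest among other gene types with the same RPKM; up to 3 at each end of a list; and any member of a list of at most 40. Members and lists were chosen with earlier results of these data known. The alternatives were a pseudocount of 0.1, median-ratio scaling, other RPKM filters, a 1.5-fold threshold, removal of GC and length trends and leaving out transcripts under 300 nt.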

Additional observations from a re-analysis of the deposited data

Results flagged for a closer look

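The results given here had opposite signs in the AR1-651 and empty vector pairs (lists of at least 10 members that differed by at least 0.3, and named genes called in AR1-651 cells). There was 1 library a condition, so none of these differences was tested. They are given as the change with AIL in AR1-651 cells minus that in empty vector cells, on the log2(RPKM + 1) scale. Among lists, the difference of the medians as deposited was -0.50 for respiratory chain subunits, -0.54 for cytosolic ribosomal proteins and 0.36 for G1 cyclins and inhibitors. It was -0.45 for tubulins and actins and 0.59 for kinesins and dyneins. In the same order, the GC-corrected medians in AR1-651 and empty vector cells were -0.36 and 0.20, -0.57 and 0.02, 0.05 and -0.13, -0.18 and 0.22, and 0.31 and -0.08. On that scale the G1 list fell short of the 0.3 difference used here. For KLK3 the difference was -1.39 and for FKBP5 -1.67, both of them androgen-induced, where the empty vector libraries differed by 0.08 and 0.04. The polyamine enzyme gene ODC1 differed by -2.05, the keratin gene KRT8 by -1.35, and the ribosomal protein genes RPL34 and RPL39 by -1.16 and -1.08; in each of these the untreated AR1-651 library was the highest of the 4. ASH1L differed by 1.91, KIF11 by 1.64 and NFE2L2 by 1.52, each of them lowest in the untreated AR1-651 library. UGT2B15 differed by 2.16, the readthrough gene CKLF-CMTM1 by 4.81, MIR2110 by 5.58 and SNORA50C by -3.49, on few reads or on reads that other genes can share.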

How the results depend on the processing

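No paired analysis was possible because each condition has 1 library. At a 1.5-fold threshold 4144 genes were raised and 2115 lowered. Raised genes numbered 1233 after GC correction and 1222 after removal of GC and length trends together, against 2184 as deposited, while lowered genes numbered 984 and 987 against 839. Counts with a pseudocount of 0.1, median-ratio scaling, an RPKM minimum of 5, no minimum or transcripts of at least 300 nt stayed within 1.5 times the reported ones, at 1675 to 2893 raised and 640 to 1232 lowered. No gene named here changed direction while called. Of 141 named genes called, median-ratio scaling took 4 below 2-fold (ACTG1, CEBPG, DUSP1 and MCL1), and GC correction 14 of the 140 with a GC content, which lost their calls because the trend itself was subtracted. Of 49 list medians, 8 changed sign with scaling, 8 with GC correction and 11 with GC and length; none of these was 1 or more in size. Depth of about 4760000 to 5650000 mapped reads limits short and scarce transcripts: 167 of 806 lowered genes had under 20 estimated reads in both libraries.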

Other observations

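The AR1-651 + AIL library differed from the empty vector + AIL library by a median of -0.01 over all kept genes, and the AR1-651 library from the empty vector library by -0.27, on the log2(RPKM + 1) scale. Further gene groups in AR1-651 cells are given beside the 16.0% of all genes raised and 6.14% lowered, and none is set apart by these counts alone. Of 41 proteasome genes 3 were raised and none lowered, with a median of 0.29 (0.11 GC-corrected) against 0.50 in empty vector cells. Of 46 splicing factors 7 were raised and 0 lowered, and after GC correction 2 and 2. Kinesins and dyneins, motors of the microtubules, had 11 of 34 raised and 2 lowered, but 1 and 1 after GC correction. Of 26 autophagy and lysosome genes 1 was raised and 3 were lowered. The tricarboxylic acid cycle, Wnt and Notch lists had medians of -0.09, 0.14 and 0.11, near or below that of all genes.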
